A study of Mus musculus with 2 samples.

Results

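The chemokines of periosteal stromal cells were taken as 9 genes, *Cxcl1*, *Cxcl12*, *Cxcl14*, *Cx3cl1*, *Ccl2*, *Ccl7*, *Ccl8*, *Ccl11* and *Ccl19*, of 31205 gene symbols counted. They were chosen by name as members of the chemokine families. Periosteal cells came from femurs and tibias of mice aged 8 weeks, were sorted for the Ai9 reporter switched on by a Cre driven by Prx1, and were captured on the BD Rhapsody system. The control library was Prx1 Cre; Ai9/+ and the other, here Piezo1 fl/fl, was Prx1 Cre; Ai9/+; Piezo1 fl/fl. The number of animals behind each library was not given in the sources used here. With 1 library per genotype, no test, standard error or replicate spread could be given, and genotype cannot be told apart from any other difference between the 2 libraries. Intervals in brackets are 95% intervals and cover counting error only.

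The control library held 6118 barcodes with 28030299 UMIs, and 7469 barcodes with 32337308 UMIs made up the Piezo1 fl/fl library. After filtering, 4418 control cells with a median of 4812.5 UMIs and 5084 Piezo1 fl/fl cells with a median of 4593 UMIs remained. *Piezo1* itself, the targeted gene, had 147 UMIs over all barcodes of the control against 74 UMIs for Piezo1 fl/fl, and among the retained cells alone its level was 5.18 and 2.42 CPM. The sequenced 3′ tag may lie outside the deleted stretch, so these counts were not taken as a check of the deletion. Over all barcodes, *Cxcl1* had 9225 and 14091 UMIs in the control and the Piezo1 fl/fl library. *Cx3cl1*, with 124 and 186 UMIs, and *Ccl19*, with 48 and 130 UMIs, were counted too thinly for most types.

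Chemokines are small secreted proteins that steer cell migration through receptors coupled to G proteins, and their families are named by the spacing of the first cysteines. Some are made at a steady level and hold cells in a tissue, while others are switched on by injury, cytokines or tissue handling and draw leukocytes from blood. *Cxcl12* retains blood progenitors through Cxcr4, and *Cxcl14* is a steadily made chemokine of epithelia and fibroblasts. *Cxcl1* draws neutrophils through Cxcr2, *Ccl2* and *Ccl7* draw monocytes through Ccr2, and mouse *Ccl8* acts through Ccr8. *Ccl11* draws eosinophils through Ccr3, *Ccl19* guides T cells and dendritic cells through Ccr7, and *Cx3cl1* is tethered to the membrane and read by Cx3cr1.

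Cell types were set by marker counts without any chemokine or receptor gene, and each name ends in "-like" because it rests on transcripts alone. Both libraries held SSPC-1/tendon-like, tendon-like, SSPC-2-like, *Pi16* fibroblast-like, *Gdf10* fibroblast-like, lining-like, mural-like, endothelial-like and macrophage-like cells. SSPC-1 markers and tendon markers led the same cluster, so SSPC-1-like cells could not be separated from it. Only the control had named mature osteoblast-like and perineurial-like clusters. Only the Piezo1 fl/fl library had blood-like, neutrophil-like and chondrocyte-like clusters and 313 cells of a further fibroblast-like cluster, led by *Cfd*, *C4b* and *Serpina3n*. The blood-like name is uncertain, since the macrophage markers stood higher over the other clusters there, by a mean log2 ratio of 6.58, than the general blood markers, by 6.30. The macrophage-like name took at least 2 macrophage markers among the 10 leading genes, and this cluster had none. *Pi16* fibroblast-like cells were 1 cluster of 833 cells in the control and 2 clusters of 367 and 283 cells in the Piezo1 fl/fl library. The cluster of 367 cells had 5 of the 7 *Pi16* fibroblast markers detected. Their mean log2 ratio was 2.17, just above the threshold of 2 for the name, and *Pi16* was not among its 10 leading genes. Its name is therefore uncertain too. In the control cluster *Col2a1* was the first leading gene, though only 1 chondrocyte marker was detected. *Gdf10* fibroblast-like cells were 1 cluster of 795 cells in the control and 2 clusters of 828 and 228 cells in the Piezo1 fl/fl library. The larger of these had 5 of the 7 *Gdf10* fibroblast markers detected and none among its 10 leading genes, so its name is the less certain. Although left out of the clustering, *Cxcl14*, *Ccl11* and *Cxcl12* were among the leading genes of some fibroblast-like clusters.

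The word stromal did not describe the highest source of every member. A sort for the Prx1 reporter should remove macrophage-like, blood-like and endothelial-like cells, yet 416 control and 293 Piezo1 fl/fl cells were macrophage-like. *Ccl2*, *Ccl7* and *Ccl8* were highest in these macrophage-like cells in both libraries. *Cxcl12* was highest in endothelial-like cells of the control. Of the 9 members, 3 were highest in a fibroblast-like type in the control against 6 for Piezo1 fl/fl, and 4 had the same highest type in both. With cells placed by their own marker counts, these became 3 in the Piezo1 fl/fl library and 7 with the same highest type. The numbers were not set against the share of all genes highest in a fibroblast-like type, so they are a description only. The *Cfd*-led fibroblast-like type was named in the Piezo1 fl/fl library alone. In the control the highest types of *Cx3cl1* and *Ccl19* rested on 4 and 5 UMIs and overlapped the next. Whether the macrophage-like cells carried the reporter was not tested.

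*Cxcl12* marks vascular and perivascular niches in bone, so its place among periosteal types was read first. In endothelial-like cells its level was 1567 CPM (1472 to 1667) in the control and 1522 CPM (1423 to 1626) in the Piezo1 fl/fl library. *Gdf10* fibroblast-like cells came next in the control with 647.5 CPM (624.1 to 671.6), and had 507 CPM (489 to 525) in the Piezo1 fl/fl library. SSPC-2-like cells, which carry osteogenic markers, followed in the control with 290 CPM (275.5 to 305) against 209 CPM (194 to 225.5). The *Cfd*-led fibroblast-like cluster of the Piezo1 fl/fl library was highest for *Cxcl12* there, with 2040 CPM (1979 to 2103). The intervals of the highest and the next type did not overlap in either library. *Cxcl12* was low in lining-like cells of the control, with 8.48 CPM from 4 UMIs, and in SSPC-1/tendon-like cells, with 54.3 CPM in the control and 38.3 CPM in the Piezo1 fl/fl library. A UMI of *Cxcl12* was found in 73.3% of control *Gdf10* fibroblast-like cells and in 59.4% after thinning to 2500 UMIs. Macrophage-like cells, taken as a type that should lack it, had 8.41% and 6.56%, at median depths of 3765.5 against 4707 UMIs. Piezo1 fl/fl shares of *Cxcl12* were 62.9% and 51.4% in *Gdf10* fibroblast-like cells, against 10.6% and 6.06% in macrophage-like cells, at median depths of 4898 and 3741 UMIs. *Gdf10* fibroblast-like cells held 44.2% of all retained *Cxcl12* UMIs in the control, where endothelial-like cells were few. The *Cfd*-led cluster held 42.9% of them in the Piezo1 fl/fl library.

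*Cxcl14* is a chemokine of fibroblasts, and its level differed widely among stromal types. Its level was highest in *Gdf10* fibroblast-like cells of the control, at 2518 CPM (2472 to 2565), and SSPC-1/tendon-like cells came next with 952 CPM (924 to 981). Tendon-like cells had 371 CPM (338 to 406), overlapping perineurial-like cells with 297 CPM. *Pi16* fibroblast-like cells, the other main fibroblast-like type, had 172 CPM of *Cxcl14*, and SSPC-2-like cells 40.75 CPM. The order of these stromal types was the same in the Piezo1 fl/fl library except for its *Cfd*-led cluster, which led with 1846 CPM (1788 to 1906), and for *Pi16* fibroblast-like cells, which fell below SSPC-2-like cells. There, *Gdf10* fibroblast-like cells had 1453 CPM (1423 to 1484) and SSPC-1/tendon-like cells 1214 CPM (1181 to 1248). A *Cxcl14* UMI was found in 68.9% of *Gdf10* fibroblast-like control cells (61.8% thinned), against 9.88% of endothelial-like cells (7.63% thinned), at median depths of 4707 and 3022 UMIs. The Piezo1 fl/fl shares were 52.2% (44.4% thinned) against 5.63% (5.26% thinned), at median depths of 4898 and 3134 UMIs.

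*Cxcl1* is an early gene of tissue damage and its transcript is short lived, so the level read after digestion and sorting need not be that of intact tissue. In the control it was highest in *Pi16* fibroblast-like cells, at 1038 CPM (1009 to 1067), then in lining-like cells, at 674 CPM (602 to 752). *Gdf10* fibroblast-like cells had 507.5 CPM (487 to 529). Skeletal types were far lower, with 47.3 CPM in SSPC-2-like, 36.1 CPM in tendon-like and 34.3 CPM in SSPC-1/tendon-like cells. Mural-like cells with 192.5 CPM and macrophage-like cells with 190.6 CPM overlapped. The order differed in the Piezo1 fl/fl library, where *Cxcl1* was highest in the *Cfd*-led cluster, at 1117 CPM (1072 to 1164), before *Gdf10* fibroblast-like cells, at 753 CPM (731 to 776). Lining-like, blood-like and tendon-like cells followed with 644, 581 and 565 CPM, where blood-like cells overlapped each of the others. *Pi16* fibroblast-like cells had 341 CPM (324 to 358.5) there. Among *Pi16* fibroblast-like cells of the control, 41.9% held a *Cxcl1* UMI (34.9% thinned), against 8.33% of mature osteoblast-like cells (1.79% thinned), at median depths of 4934 and 6658.5 UMIs. The Piezo1 fl/fl share of *Cxcl1* was 33.5% (24% thinned), against 5.75% of neutrophil-like cells (2.44% thinned), at median depths of 5716.5 and 3993 UMIs.

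**Figure D1:**
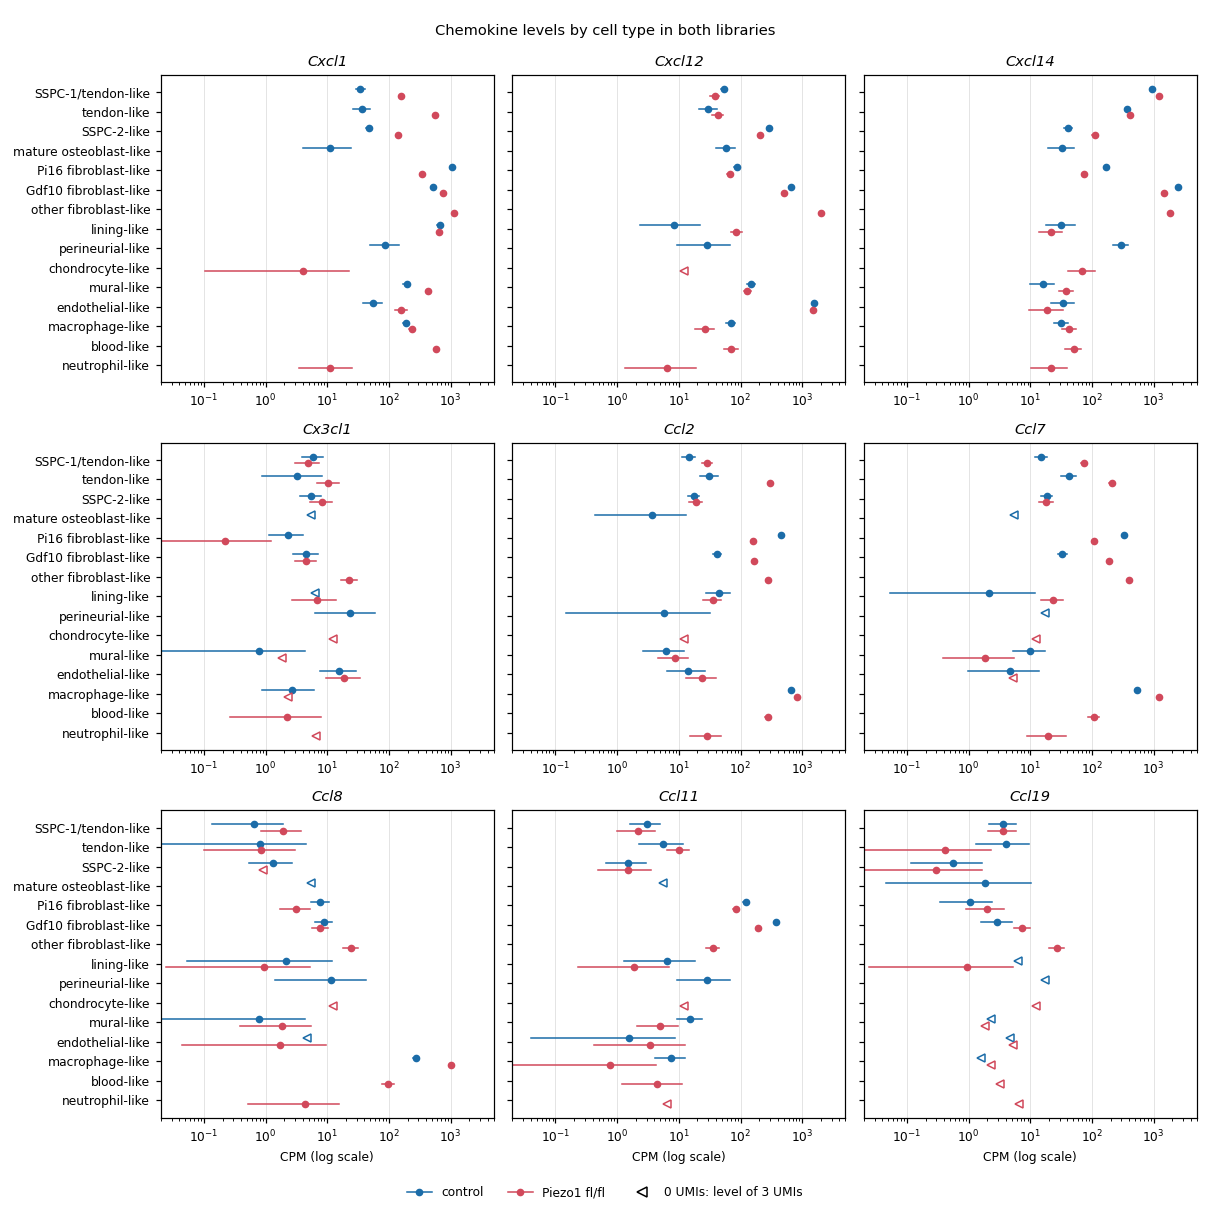
Level of each of the 9 chemokine genes by cell type, in CPM (UMIs of the gene over all UMIs of the type) on a log axis, in the control (blue) and the Piezo1 fl/fl library (red), with 95% counting intervals as bars. Open triangles are types with 0 UMIs, drawn at the level that 3 UMIs would give; *Ccl8* stands highest in macrophage-like cells in both libraries, with 271.6 and 999.8 CPM.

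*Ccl2*, *Ccl7* and *Ccl8* lie in the same chromosomal cluster and are made by both fibroblasts and macrophages when monocytes are recruited. *Ccl2* had 648 CPM (612 to 685) in macrophage-like cells of the control and 838 CPM (789 to 889) in those of the Piezo1 fl/fl library. *Pi16* fibroblast-like cells were the next source in the control, at 448 CPM (429 to 467), while *Gdf10* fibroblast-like cells had 41.9 CPM. Behind macrophage-like cells of the Piezo1 fl/fl library, tendon-like cells, blood-like cells and the *Cfd*-led cluster overlapped, with 303, 280.3 and 280.3 CPM of *Ccl2*. Stromal sources were thus read in cells of different kinds in the 2 libraries. *Ccl7* had 538.5 CPM (506 to 573) in macrophage-like cells of the control and 1227 CPM (1168 to 1288) in those of the Piezo1 fl/fl library. Behind them stood *Pi16* fibroblast-like cells in the control, with 330.5 CPM (314 to 347), and the *Cfd*-led cluster in the Piezo1 fl/fl library, with 392 CPM (365 to 420). Because *Pi16* fibroblast-like cells were numerous, they held 56.6% of *Ccl2* UMIs and 53.1% of *Ccl7* UMIs in the control, more than the macrophage-like cells with 32.2% and 34%. *Ccl8* was the member nearest to a macrophage gene, with 272 CPM (249 to 296) in macrophage-like cells of the control and 999.8 CPM (946 to 1055) in those of the Piezo1 fl/fl library. Macrophage-like cells held 84.9% and 86.1% of its UMIs. *Gdf10* fibroblast-like cells had 8.79 and 7.60 CPM of *Ccl8* in the control and the Piezo1 fl/fl library.

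Shares of cells with these transcripts were low in stroma even where levels were high. In control *Pi16* fibroblast-like cells, 13.9% held a *Ccl2* UMI (11.1% thinned), against 1.35% of mural-like cells (1.21% thinned), at median depths of 4934 and 3745 UMIs. The Piezo1 fl/fl shares of *Ccl2* were 13.1% (9.85% thinned) against 2.20% (1.63% thinned), at median depths of 5716.5 and 3948 UMIs. *Ccl7* was found in 16.6% of *Pi16* fibroblast-like cells of the control (13.6% thinned) and 15.7% of those of the Piezo1 fl/fl library (9.69% thinned). Mural-like cells, at the depths just given, had 1.69% (0.403% thinned) and 0.826% (0.977% thinned) with *Ccl7*. Macrophage-like cells behaved differently, with *Ccl2* in 47.1% of control cells (44.7% thinned) and 49.5% of Piezo1 fl/fl cells (44.6% thinned), at median depths of 3765.5 and 3741 UMIs. *Ccl8* was found in 20.2% of macrophage-like cells of the control (16.2% thinned) and 37.5% of those of the Piezo1 fl/fl library (37.7% thinned). SSPC-1/tendon-like cells, as a type that should lack *Ccl8*, had 0.376% (0.277% thinned) at a median of 5221 UMIs and 0.885% (0.130% thinned) at 3863.5 UMIs.

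*Ccl11* is linked to eosinophils and was the member most restricted to fibroblast-like cells. In *Gdf10* fibroblast-like cells it had 382 CPM (364 to 400.3) in the control and 193 CPM (182 to 205) in the Piezo1 fl/fl library. *Pi16* fibroblast-like cells came next in both, at 121.5 CPM (112 to 132) and 85.1 CPM. The remaining types were far lower, the highest being perineurial-like cells of the control with 29.1 CPM from 5 UMIs and the *Cfd*-led cluster with 35.2 CPM. Together the *Gdf10* and *Pi16* fibroblast-like cells held most *Ccl11* UMIs, 72.1% and 24.8% in the control and 69.2% and 23.1% in the Piezo1 fl/fl library. A *Ccl11* UMI was found in 40.8% of control *Gdf10* fibroblast-like cells (34.4% thinned), against 1.63% of SSPC-1/tendon-like cells (0.555% thinned), at median depths of 4707 and 5221 UMIs. The Piezo1 fl/fl shares were 25.7% (20.7% thinned) against 0.774% (0.521% thinned), at median depths of 4898 and 3863.5 UMIs.

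*Cx3cl1* and *Ccl19* could be ranked only in part. *Cx3cl1*, a tethered chemokine of vessels and nerves, was highest in perineurial-like cells of the control at 23.3 CPM (6.34 to 59.6), from 4 UMIs, an interval that overlapped endothelial-like cells at 15.6 CPM from 10 UMIs. Its Piezo1 fl/fl level in the *Cfd*-led cluster, at 22.5 CPM (16.4 to 30), overlapped endothelial-like cells at 19 CPM. *Ccl19*, known from stromal cells of lymphoid organs, was highest in tendon-like cells of the control at 4.02 CPM from 5 UMIs, which could not be told apart from SSPC-1/tendon-like cells at 3.65 CPM. The *Cfd*-led cluster of the Piezo1 fl/fl library had 26.9 CPM (20.2 to 35) of *Ccl19* from 55 UMIs, and *Gdf10* fibroblast-like cells 7.43 CPM from 44 UMIs. Macrophage-like cells had 0 UMIs of *Ccl19*, which puts a limit of 1.59 CPM on the control and 2.28 CPM on the Piezo1 fl/fl library. The symbol *Ccl19* also covered another identifier on an unplaced scaffold, which had 0 UMIs in both libraries.

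Inducible chemokines can come from a small number of cells, so the share of UMIs in the richest 1% of retained cells was read for each member. These were 45 control and 51 Piezo1 fl/fl cells. They held 64.1% and 52.1% of *Ccl2* UMIs, 57.4% and 48.9% of *Ccl7* UMIs, and 80.3% and 81.2% of *Ccl8* UMIs. *Cxcl12* and *Cxcl14* were spread more widely. The same share was 19.7% for *Cxcl12* in the control against 35.7% for Piezo1 fl/fl, where a single cell held 436 *Cxcl12* UMIs. For *Cxcl14* it was 25.6% and 28%. *Cxcl1*, with 41.7% and 28.2%, lay between these groups in the control and within the range of *Cxcl12* and *Cxcl14* in the Piezo1 fl/fl library. A level in CPM therefore does not describe a typical cell for *Ccl2*, *Ccl7* or *Ccl8*.

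Whether the inducible members sat in the same cells was read at an equal depth of 2500 UMIs. Deeper cells detect more of every gene, and the thinning removes that shared effect. In control *Pi16* fibroblast-like cells, *Ccl2* was found in 47.6% (37.6 to 57.6) of cells with a *Ccl7* UMI and 5.36% (3.76 to 7.38) of cells without. The Piezo1 fl/fl values for the same type were 49.2% (35.9 to 62.5) and 5.64% (3.86 to 7.91). *Cxcl1* often sat with them there, since *Ccl2* was found in 25.4% of control *Pi16* fibroblast-like cells with a *Cxcl1* UMI and 3.46% of those without. This did not hold in every type. For *Ccl2* with and without *Cxcl1* the shares were 51.3% (34.8 to 67.6) and 43.8% (37.9 to 49.8) in control macrophage-like cells, and 5.15% (2.09 to 10.3) and 3.64% (2.32 to 5.41) in SSPC-1/tendon-like cells of the Piezo1 fl/fl library. In tendon-like cells of the Piezo1 fl/fl library, *Ccl7* was found in 32.3% (23.3 to 42.5) of cells with *Cxcl1* and 3.00% (1.38 to 5.62) without. Macrophage-like cells also paired *Ccl2* with *Ccl7*, at 72.5% against 31.7% in the control and 76.8% against 20.5% in the Piezo1 fl/fl library. *Ccl8* was not seen to go with *Ccl2* in control macrophage-like cells, which had *Ccl2* in 44.2% (30.5 to 58.7) of cells with *Ccl8* and 44.8% (38.7 to 50.9) without. The 2 did go together in macrophage-like cells of the Piezo1 fl/fl library, at 69% (58.1 to 78.5) and 29.9% (22.5 to 38). Of the steadily made pair, *Cxcl12* was found in 65.3% of control *Gdf10* fibroblast-like cells holding *Cxcl14* and 50% of those without. Control SSPC-1/tendon-like cells went the other way, at 8.82% (6.22 to 12) with *Cxcl14* and 16% (12.2 to 20.5) without. In SSPC-1/tendon-like cells of the Piezo1 fl/fl library the shares overlapped, at 9.24% (6.68 to 12.4) and 6.27% (3.92 to 9.42).

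The mix of the inducible members was read as UMIs of *Cxcl1* per UMI of *Ccl2* and compared between types of the same library. In the control the ratio was 2.32 in *Pi16* fibroblast-like, 12.1 in *Gdf10* fibroblast-like, 15.1 in lining-like and 0.294 in macrophage-like cells. In the Piezo1 fl/fl library it was 1.86 in tendon-like, 2.11 in *Pi16* fibroblast-like, 2.07 in blood-like, 4.52 in *Gdf10* fibroblast-like, 18.2 in lining-like and 0.279 in macrophage-like cells. It was 5.48 in SSPC-1/tendon-like, 7.44 in SSPC-2-like and 50.7 in mural-like cells of that library, the last from 14 *Ccl2* UMIs. The ratio thus differed between some types in each library and was alike in others. The 2.39 of SSPC-1/tendon-like cells in the control was close to that of *Pi16* fibroblast-like cells.

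*Pi16* and *Gdf10* fibroblast-like cells are both kinds of connective tissue fibroblast, and *Pi16* fibroblasts of other tissues lie in the outer coat of vessels. The comparison asked whether they share a chemokine profile. In the control, 3 of 7 members tested were at least 2-fold higher and 3 at least 2-fold lower in *Pi16* than in *Gdf10* fibroblast-like cells, where 9.25% of all genes tested differed 2-fold. *Ccl2* and *Ccl7* were the higher members, with log2 ratios of 3.42 (3.20 to 3.64) and 3.32 (3.07 to 3.57). At resolution 0.8 *Ccl7* fell short of 2-fold, with a log2 ratio of 0.68. *Cxcl1* was higher by a log2 ratio of 1.03 (0.96 to 1.10), but this reversed to -0.13 at that resolution. *Cxcl14*, *Cxcl12* and *Ccl11* were lower in *Pi16* fibroblast-like cells, with log2 ratios of -3.87, -2.90 and -1.65. In the Piezo1 fl/fl library, 0 of 8 members tested were higher and 6 were lower in *Pi16* fibroblast-like cells, where 9.75% of all genes tested differed 2-fold. *Cxcl14* and *Cxcl12* were lower by more than 2-fold there too, at -4.27 and -2.91. *Ccl11* was lower at -1.18, but this difference went to -0.01 at resolution 0.8, and 6 of 9 alternatives kept it past 2-fold. *Ccl2* did not differ beyond counting error, at -0.04 (-0.18 to 0.10), and *Ccl7* was lower at -0.77. *Cxcl1* was lower, at -1.14, but turned to 0.25 with cells placed by their own marker counts, a setting that also gave 2 higher and 2 lower members in place of 0 and 6. The higher pair were *Ccl2*, at 1.98, and *Ccl7*, at 2.23.

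The clusters inside each class differed in several members, though not in all. In the Piezo1 fl/fl library, *Pi16* fibroblast-like cells were a *Myoc*- and *Crabp2*-led cluster with 155 CPM of *Cxcl1* and 5.84 CPM of *Ccl11*, and a *Pi16*- and *Efemp1*-led cluster with 685 CPM of *Cxcl1* and 232 CPM of *Ccl11*. Its *Gdf10* fibroblast-like cells were a *Myoc*- and *Ccl11*-led cluster with 217 CPM of *Ccl2* and a *Gdf10*- and *Fmo2*-led cluster with 19.3 CPM of *Ccl2*. The level of *Ccl2* in the class was thus carried by the cluster whose name is less certain. *Cxcl12* was alike in that pair, at 506 and 509 CPM. At resolution 0.8 the control classes divided as well. There, a *Clec3b*- and *Sema3e*-led cluster of 490 cells had 396 CPM of *Cxcl1* and 5.17 CPM of *Ccl11*, while a *Pi16*- and *Efemp1*-led cluster of 383 cells had 1322 CPM of *Cxcl1* and 216 CPM of *Ccl11*. A cluster of 277 control cells led by *C7*, *C3* and *C4b* had 1567 CPM of *Cxcl1* and 735 CPM of *Cxcl12*. It shared *C3* and *C4b* as leading genes with the *Cfd*-led cluster of the Piezo1 fl/fl library. Whether these clusters hold the same kind of cell was not tested. A fold between the libraries in these classes therefore also carries the mix of clusters.

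SSPC-1/tendon-like cells carry markers of fibrous tissue and tendon, and SSPC-2-like cells carry markers of cells on the way to bone formation. The comparison asked whether chemokines follow that division. In the control, 1 of 6 members tested was at least 2-fold higher and 1 lower in SSPC-1/tendon-like cells, where 17.9% of all genes tested differed 2-fold. In the Piezo1 fl/fl library, 2 of 5 were higher and 1 lower, where 14.1% of all genes tested differed. *Cxcl14* was the higher member in both, with log2 ratios of 4.55 (4.35 to 4.75) and 3.43 (3.28 to 3.59). The lower member was *Cxcl12* in both, at -2.42 (-2.61 to -2.22) and -2.45 (-2.71 to -2.20). These stromal chemokines thus ran opposite ways along the same axis, and each kept its direction and its 2-fold difference under every alternative run. All genes tested had median log2 ratios of 0.22 and 0.12 between these types, small beside either value. *Ccl7* was higher only in the Piezo1 fl/fl library, at 75.4 against 18.2 CPM, a log2 ratio of 2.05 (1.65 to 2.47). In the control its 15 and 18.6 CPM did not differ beyond counting error, and the difference between the libraries in this ratio was not tested. With cells placed by their own marker counts, *Ccl2* and *Ccl7* were also lower past 2-fold in the control, at -1.03 and -1.11. Under that setting *Ccl2* went from 0.62 to 2.33 in the Piezo1 fl/fl library.

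Tendon-like cells had the largest folds of *Cxcl1* and *Ccl2* between the libraries among the types tested in the main clustering. With cells placed by their own marker counts, *Ccl2* had a larger log2 ratio in SSPC-1/tendon-like cells, 3.38, than in tendon-like cells, 1.94. Such genes respond both to the state of the tissue and to its handling, and with 1 library per genotype the contribution of Piezo1 was not tested. Of 5 members tested in tendon-like cells, 3 were at least 2-fold higher in the Piezo1 fl/fl library, where 8.25% of all genes tested differed 2-fold. *Cxcl1* had 36.1 CPM in the control and 565 CPM in the Piezo1 fl/fl library, a log2 ratio of 3.97 (3.54 to 4.43). *Ccl2* had 31.3 and 303 CPM, a log2 ratio of 3.27 (2.81 to 3.78), and over the alternatives it was at most 3.54. *Ccl7* had 42.6 and 209 CPM, a log2 ratio of 2.30 (1.89 to 2.73). All 3 stayed past 2-fold under the 10 alternatives, but with cells placed by their own marker counts *Cxcl1* fell to 3.09 and *Ccl7* to 1.54. The main value of *Cxcl1* was at the top of its range. *Cxcl14*, which is not an inducible member, had 371 and 412 CPM, a log2 ratio of 0.15 (-0.01 to 0.31). A *Cxcl1* UMI was found in 10.9% of control tendon-like cells (6.42% thinned) and 32.1% of Piezo1 fl/fl tendon-like cells (24.8% thinned), at median depths of 4880 and 4524 UMIs. The thinned share in the control, 6.42% (3.36 to 10.9), overlapped that of mature osteoblast-like cells, 1.79% (0.0452 to 9.55), while that in the Piezo1 fl/fl library was above the 2.44% of neutrophil-like cells. By level the control tendon-like cells, at 36.1 CPM (26.35 to 48.35), lay above mature osteoblast-like cells, at 11 CPM (4.02 to 23.8).

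The other skeletal types moved the same way for *Cxcl1*. In SSPC-1/tendon-like cells, 3 of 5 members tested were higher in the Piezo1 fl/fl library, against 4.69% of all genes tested past 2-fold. *Cxcl1* had 34.3 CPM in the control and 158.5 CPM in the Piezo1 fl/fl library there, a log2 ratio of 2.21 (1.96 to 2.47). *Ccl7* had 15 and 75.4 CPM, a log2 ratio of 2.33 (1.95 to 2.72). *Ccl2* was at the threshold, with 14.4 and 28.9 CPM and a log2 ratio of 1.01 (0.56 to 1.46), and moved to the 3.38 given above under 1 alternative. These *Ccl2* levels were low, since endothelial-like cells had 14.05 and 24.1 CPM and mural-like cells 6.14 and 8.54 CPM. SSPC-2-like cells differed in their members, since *Ccl2* and *Ccl7* did not move beyond counting error, though *Ccl2* went from a log2 ratio of 0.11 to 1.05 as a mean over cells. There, 2 of 6 members tested were higher, against 4.36% of all genes tested, namely *Cxcl1* at 47.3 and 140 CPM with a log2 ratio of 1.57 (1.34 to 1.79), and *Cxcl14* at 40.75 and 112 CPM with a log2 ratio of 1.46 (1.22 to 1.71). *Cxcl12* was modestly lower in the Piezo1 fl/fl library in both, with log2 ratios of -0.50 in SSPC-1/tendon-like and -0.47 in SSPC-2-like cells. Neither held under all alternatives, since the first turned to 0.10 with cells placed by their own marker counts and the second went to -0.01 under 10% mitochondrial UMIs.

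Vessel-associated and lining-like cells are sources of chemokines that meet blood or joint and tendon surfaces. In mural-like cells, 2 of 3 members tested were higher in the Piezo1 fl/fl library, against 1.58% of all genes tested. They were *Cxcl1*, at 192.5 and 433 CPM with a log2 ratio of 1.17 (0.96 to 1.38), and *Cxcl14*, at 16.1 and 38.4 CPM with a log2 ratio of 1.25 (0.52 to 2.04). The count fell to 1 under 3 alternatives, and *Cxcl14* ranged from 0.44 to 2.77. Both *Cxcl14* levels were low. Endothelial-like cells, set against *Gdf10* fibroblast-like cells above as a type with little *Cxcl14*, had 34.3 and 19 CPM. Whether the *Cxcl14* UMIs came from mural-like cells was not tested. In endothelial-like cells, 1 of 2 members tested was higher, against 3.89% of all genes tested. This was *Cxcl1*, at 54.6 and 157 CPM with a log2 ratio of 1.52 (0.94 to 2.13), whereas *Cxcl12* did not differ beyond counting error, at -0.04 (-0.17 to 0.09). In lining-like cells, 1 of 3 members tested was higher, against 7.18% of all genes tested, whose median log2 ratio was 0.16. It was *Cxcl12*, with 8.48 CPM from 4 UMIs and 86 CPM from 90 UMIs, a log2 ratio of 3.34 (1.94 to 5.25), or 3.18 relative to that median. The ratio fell to 2.24 with cells placed by their own marker counts. *Cxcl1*, already high in lining-like cells, did not differ beyond counting error at 674 and 644 CPM.

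*Cxcl1*, *Ccl2* and *Ccl7* ran opposite ways in the *Pi16* and *Gdf10* fibroblast-like cells, while *Cxcl12*, *Cxcl14* and *Ccl11* had log2 ratios below 0 in both. Of these, *Cxcl12* turned from -0.36 to 0.64 in *Pi16* and from -0.35 to 0.15 in *Gdf10* fibroblast-like cells with cells placed by their own marker counts, and *Ccl11* turned from -0.51 to 0.73 in *Pi16* fibroblast-like cells at resolution 0.8. The classes were held by different clusters in the libraries, so these folds were read together with the fold over all fibroblast-like cells. In *Pi16* fibroblast-like cells, 0 of 7 members tested were higher and 5 lower in the Piezo1 fl/fl library, against 3.93% of all genes tested. *Cxcl1* had 1038 CPM in the control and 341 CPM in the Piezo1 fl/fl library, a log2 ratio of -1.61 (-1.69 to -1.52). *Ccl2* and *Ccl7* were lower as well, at -1.47 (-1.59 to -1.35) and -1.60 (-1.75 to -1.45). The shares of cells holding them were close, at 13.9% and 13.1% for *Ccl2* and 16.6% and 15.7% for *Ccl7*, though after thinning *Ccl7* had 13.6% (11.3 to 16.3) and 9.69% (7.46 to 12.3). *Ccl8* and *Cxcl14* made up the 5, at -1.30 and -1.18. With cells placed by their own marker counts the number of lower members went from 5 to 0, and *Cxcl14* and *Ccl8* reversed to 0.27 and 0.35. In *Gdf10* fibroblast-like cells, 3 of 8 members tested were higher, against 2.65% of all genes tested. They were *Ccl7*, at 33.1 and 186.5 CPM with a log2 ratio of 2.49 (2.24 to 2.75), *Ccl2* at 1.99 (1.76 to 2.22), and *Ccl19* at 1.34 (0.42 to 2.36) from 13 and 44 UMIs. The number went from 3 to 1 with cells placed by their own marker counts and with 500 to 6000 genes per cell. Over the alternatives *Ccl2* ranged from 0.40 to 2.22 and *Ccl7* from 0.13 to 2.81. *Ccl19* fell to 0.67 as a mean over cells, and 8 of 10 alternatives kept it past 2-fold. *Cxcl1* was higher in *Gdf10* fibroblast-like cells by a log2 ratio of 0.57 (0.50 to 0.64), but turned to -0.43 with cells placed by their own marker counts.

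Over all fibroblast-like cells the inducible members differed by less than 2-fold. Here 1 of 9 members tested was higher and 0 lower, against 3.12% of all genes tested. *Ccl19* was the higher member, with 1.95 CPM in the control and 8.67 CPM in the Piezo1 fl/fl library, a log2 ratio of 2.15 (1.43 to 2.96) that ranged from 1.70 to 2.20 over the alternatives. *Cxcl1* had 783 and 665 CPM, a log2 ratio of -0.24 (-0.28 to -0.19), and *Ccl7* had 188 and 192 CPM, a log2 ratio of 0.04 (-0.05 to 0.13). *Ccl2* moved most of the 3 in the main setting, with 253 and 183.5 CPM and a log2 ratio of -0.46 (-0.55 to -0.38). As means over cells the log2 ratios were -0.06 for *Cxcl1*, -0.15 for *Ccl2* and 0.24 for *Ccl7*, so *Ccl7* moved most there. With cells placed by their own marker counts *Ccl7* turned to -0.55. *Ccl11*, the member most restricted to these cells, had 246.5 and 128 CPM, a log2 ratio of -0.94 (-1.04 to -0.85). It lay so near to 2-fold that 3 alternatives took it past. In *Gdf10* fibroblast-like cells alone *Ccl11* was -0.98 (-1.09 to -0.87), and it ranged from -1.62 to -0.92 over the alternatives, on both sides of 2-fold. *Cxcl12* had 356 and 601 CPM, a log2 ratio of 0.75 (0.69 to 0.81), and the *Cfd*-led cluster held much of the UMIs in the Piezo1 fl/fl library.

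**Figure D2:**
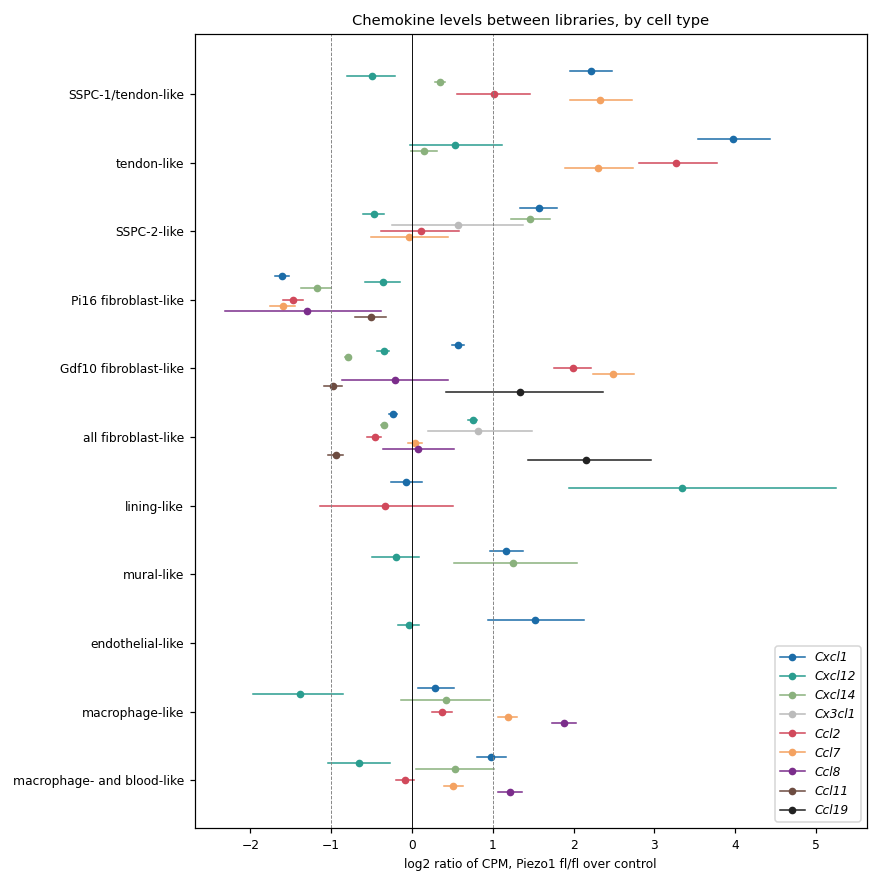
Log2 ratio of the level in the Piezo1 fl/fl library over the control (horizontal axis) for each member with at least 50 UMIs in a cell type, with 95% counting intervals as bars and dashed lines at 2-fold. *Cxcl1* stands right of the dashed line in tendon-like cells, at 3.97, and left of it in *Pi16* fibroblast-like cells, at -1.61; each side is 1 library.

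Macrophage-like cells are the main source of *Ccl8* and can be resident or recruited. Of 6 members tested there, 2 were at least 2-fold higher and 1 lower in the Piezo1 fl/fl library, against 6.31% of all genes tested. *Ccl8* had 272 and 999.8 CPM, a log2 ratio of 1.88 (1.73 to 2.03), and *Ccl7* had 538.5 and 1227 CPM, a log2 ratio of 1.19 (1.07 to 1.30). Over the alternatives *Ccl8* ranged from 1.06 to 1.96 and *Ccl7* from 0.41 to 1.27. *Ccl2* moved less, at 0.37 (0.25 to 0.49). *Cxcl1* had a log2 ratio of 0.29 (0.07 to 0.52) but was past 2-fold under 3 alternatives, up to 1.56, and under these *Ccl7* fell short of 2-fold. The lower member was *Cxcl12*, at -1.39 (-1.97 to -0.85), a gene these cells should lack, and 4 alternatives left it short of 2-fold. It rested on 132 and 35 UMIs, and the share of cells holding it was not lower, at 8.41% and 10.6%. The libraries did not divide these cells alike, since only the Piezo1 fl/fl library had the cluster called blood-like, whose macrophage markers were high as well, so the folds above depend on that division. With macrophage-like and blood-like cells pooled, 1 of 6 members tested was higher, against 4.49% of all genes tested, namely *Ccl8* at 1.21 (1.07 to 1.36). *Cxcl1* was just short of 2-fold in that pool, at 0.98 (0.80 to 1.16), and past it under 3 alternatives. *Ccl7* then had a log2 ratio of 0.51 (0.40 to 0.63). At resolution 0.8 the control macrophage-like cells fell mainly into a *Cd74*-led cluster of 241 cells with 128 CPM of *Ccl8* and a *Retnla*- and *Lyve1*-led cluster of 155 cells with 521 CPM (469 to 576). *Ccl7* had 328 and 913 CPM in that pair. The 293 macrophage-like cells of the Piezo1 fl/fl library stayed in 1 cluster at that resolution.

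Dissociation and NF-kB activity both raise inducible chemokines, so gene lists for each were read beside them. All 11 immediate early and stress genes were detected in tendon-like cells of both libraries, with 13840 CPM in the control and 15110 CPM in the Piezo1 fl/fl library, and *Fos* was the most abundant at 4551 and 4973 CPM. Of 15 NF-kB targets and regulators, 10 were detected in tendon-like cells of the control and 15 in those of the Piezo1 fl/fl library, with 2233 and 4059 CPM. Detection took at least 10 UMIs in the type, and these cells held 1245444 UMIs in the control against 2422420 UMIs for Piezo1 fl/fl, so the numbers detected were not read as a difference. *Zfp36* was the most abundant, at 1594 and 2374 CPM. *Pi16* fibroblast-like cells, where *Cxcl1*, *Ccl2* and *Ccl7* were lower, had all genes of both lists detected. The summed NF-kB list had 5007 CPM there in the control and 2564 CPM in the Piezo1 fl/fl library, with *Zfp36* at 2839 and 1348 CPM. The summed immediate early and stress list had 15110 and 8335 CPM there, with *Fos* at 4285 and 2313 CPM. The lists did not move alike with *Ccl2* and *Ccl7* in every type. In *Gdf10* fibroblast-like cells, where both were higher, the immediate early and stress list had 16410 CPM in the control and 16330 CPM in the Piezo1 fl/fl library. The NF-kB list had 3784 and 4635 CPM in these cells, a log2 ratio of 0.29. Macrophage-like cells had 10170 and 11380 CPM of the 15 NF-kB genes, all detected. In SSPC-1/tendon-like cells the summed NF-kB list had 3059 CPM in the control and 4807 CPM in the Piezo1 fl/fl library, a log2 ratio of 0.65. In mural-like cells the sum was 5499 and 8412 CPM, at 0.61. All 15 genes were detected in the former and 13 in the latter. *Zfp36* made up most of these sums, with 2284 and 3155 CPM in SSPC-1/tendon-like and 4289 and 6390 CPM in mural-like cells. Both differences fell short of 2-fold, and a sum does not show how many genes of a list moved. The summed immediate early and stress list had 7713 and 11420 CPM in endothelial-like cells, at 0.57 and so also short of 2-fold. All 11 genes were detected there, with *Fos* at 2149 and 3377 CPM. The *Cfd*-led cluster, which was highest in the Piezo1 fl/fl library for *Cxcl1*, *Cxcl12*, *Cxcl14*, *Cx3cl1* and *Ccl19*, had 28380 CPM of the immediate early and stress list, the highest of the types of that library, with *Fos* at 8122 CPM. *Gdf10* fibroblast-like cells there had 16330 CPM. The NF-kB list had 11680 CPM in the *Cfd*-led cluster, with *Zfp36* at 7986 CPM, against 4635 CPM in *Gdf10* fibroblast-like cells. The part of either list in the chemokine differences was not tested.

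The genes most alike to each member over types were found by Pearson correlation of log2 levels among 9591 genes. The 24 points were the types of both libraries, which share animals, library and depth within each library, so r is a description only. *Cxcl14* was most alike to *Apod* (r 0.94) and *Sfrp1* (r 0.914), and *Ccl8* to *P2ry6* (r 0.901) and *Gpr34* (r 0.888). For *Ccl2* they were *Ifi207* (r 0.894) and *Naaa* (r 0.874), and for *Ccl7* *Scfd2* (r 0.846) and *Rbpj* (r 0.844). *Ccl11* had *Ms4a4d* (r 0.861) and *Hmcn2* (r 0.833), and *Cxcl1* had *Arhgap6* (r 0.818) and *Abl1* (r 0.799). *Cxcl12* came nearest to *Dkc1* (r 0.783) and *Ncoa7* (r 0.782), *Cx3cl1* to *Plscr2* (r 0.765) and *Shank3* (r 0.763), and *Ccl19* to *Cyp2f2* (r 0.785) and *Bmper* (r 0.783).

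Chemokines act on cells that carry their receptors, and atypical receptors take them up without signalling through G proteins. Of 19 receptor genes, 9 had at least 10 UMIs in some type in each library. Macrophage-like cells had 9 of them in the control against 8 for Piezo1 fl/fl, against 2 and 3 in *Pi16* fibroblast-like cells. *Ccr2*, which reads *Ccl2* and *Ccl7*, was highest in macrophage-like cells of the control at 380 CPM (353 to 409) and in blood-like cells of the Piezo1 fl/fl library at 438 CPM (396 to 483). *Cxcr4*, the receptor for *Cxcl12*, was highest in macrophage-like cells of the control at 286 CPM and in neutrophil-like cells of the Piezo1 fl/fl library at 333 CPM. *Cx3cr1* was highest in macrophage-like cells of the control at 413 CPM and in blood-like cells of the Piezo1 fl/fl library at 185 CPM. The 4 genes listed as atypical receptors, *Ackr1*, *Ackr2*, *Ackr3* and *Ackr4*, were all detected in stromal types. The list of 19 receptor genes was not limited to those that signal through G proteins, and *Ccrl2* was counted in it. *Ackr3*, which scavenges *Cxcl12*, was highest in *Pi16* fibroblast-like cells in both libraries, at 1345 CPM (1312 to 1378) and 1368 CPM (1334 to 1403), the type with low *Cxcl12* among the fibroblast-like cells. *Ackr1* was highest there too, at 190 and 224 CPM.

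Chromosomal position and promoter sequence were read for the members on mouse build GRCm38. *Ccl2*, *Ccl7*, *Ccl11* and *Ccl8* lie in that order on the plus strand of chromosome 11, from 82035571 to 82116799. *Cxcl1* lies on chromosome 5 from 90891241 to 90893115 and *Cxcl14* on chromosome 13 from 56288643 to 56296551, on the plus and the minus strand. Promoters of 6 of the 9 members were matched, those of *Cxcl1*, *Cxcl12*, *Cxcl14*, *Cx3cl1*, *Ccl8* and *Ccl19*, and those of *Ccl2*, *Ccl7* and *Ccl11* were not.

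The 250 bases before the transcription start were searched on both strands for an NF-kB consensus, for TGANTCA, which is bound by AP-1, and for TATAAA. Of 32817 promoters, 3.90% held the NF-kB consensus, 6.75% held TGANTCA and 12.4% held TATAAA. The *Cxcl1* promoter held 2 overlapping matches to the NF-kB consensus, GGGAATTTCC and GGAATTTCCC, which begin 71 and 70 bases before the start. None of the 3 motifs was found for *Cxcl12*, *Cxcl14* or *Ccl19*, and TATAAA was found for *Cx3cl1* and *Ccl8*, 6 and 32 bases before the start. The promoters of *Cxcl1*, an inducible member, of *Cxcl12* and *Cxcl14*, the steadily made members, and of *Ccl8* are printed from the RefSeq starts on build GRCm38.p6, each in the direction of transcription. Capitals mark the motif matches. A match describes the sequence and does not show binding. They span chr5:90890995-90891244 on the plus strand, chr6:117168285-117168534 on the plus strand, chr13:56296552-56296801 on the minus strand and chr11:82114935-82115184 on the plus strand.
Cxcl1: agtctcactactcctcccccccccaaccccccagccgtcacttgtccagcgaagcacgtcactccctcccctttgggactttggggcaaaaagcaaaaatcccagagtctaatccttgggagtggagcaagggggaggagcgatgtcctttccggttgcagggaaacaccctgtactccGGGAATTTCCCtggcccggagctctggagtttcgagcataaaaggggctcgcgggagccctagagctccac
Cxcl12: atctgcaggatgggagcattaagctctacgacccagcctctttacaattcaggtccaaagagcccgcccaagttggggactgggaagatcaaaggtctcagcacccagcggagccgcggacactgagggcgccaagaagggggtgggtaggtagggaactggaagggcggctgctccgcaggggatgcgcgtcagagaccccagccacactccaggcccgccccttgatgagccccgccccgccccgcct
Cxcl14: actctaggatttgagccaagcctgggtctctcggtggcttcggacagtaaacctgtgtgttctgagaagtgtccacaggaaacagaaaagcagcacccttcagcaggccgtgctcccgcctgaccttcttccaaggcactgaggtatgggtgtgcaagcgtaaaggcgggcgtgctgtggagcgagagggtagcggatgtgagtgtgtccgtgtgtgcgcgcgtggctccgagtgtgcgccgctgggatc
Ccl8: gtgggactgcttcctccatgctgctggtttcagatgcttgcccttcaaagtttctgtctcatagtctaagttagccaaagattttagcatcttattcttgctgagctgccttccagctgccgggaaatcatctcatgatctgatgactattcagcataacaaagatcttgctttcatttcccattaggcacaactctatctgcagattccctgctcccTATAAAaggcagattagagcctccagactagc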

How the data were processed

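Single-cell transcriptomes of sorted periosteal cells were read as UMI counts, 1 library per genotype. The values were the UMI counts per gene and barcode that the authors deposited, whose processing notes name fastp, UMI-tools, STAR and Seurat 4.0.3; the genome build was not given in the sources used here. Barcodes were kept when they had 1000 to 5000 genes and less than 25% of UMIs from mitochondrial genes, and predicted doublets, 46 control and 67 Piezo1 fl/fl barcodes, were removed with scanpy 1.11.5. Of the barcodes, 50 occurred in both libraries, and they were kept apart by library. Each library was clustered alone in Seurat 5.3.0 under R 4.3.3, with 2000 variable features less any chemokine or chemokine receptor gene, 20 dimensions and resolution 0.4. Clusters were named by marker lists, and the thresholds for naming were set after the clusters were seen. The members and lists were chosen with earlier results of these data known.

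Levels are UMIs of a gene summed over a type, over all UMIs of the type (CPM), with exact Poisson intervals, and ratios have exact conditional intervals (scipy 1.17.1, numpy 2.4.6). Types needed 20 cells. The share of all genes past 2-fold was taken among genes with at least 50 UMIs over both sides of a comparison, and members were tested under the same rule. Shares of cells were also read after thinning to 2500 UMIs, which left out 482 control and 580 Piezo1 fl/fl cells, and a count of 0 was given the limit of 3 UMIs. The ratios and their intervals were run on simulated Poisson counts, which is the model the intervals assume. Such counts do not hold the clumping of UMIs in few cells, so the run does not show that the intervals are wide enough for clumped members. Positions came from GENCODE vM21.

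Named genes were all 9 members; other ligands and receptors with at least 50 CPM and 10 UMIs in a control type; and for each member the 2 genes with the highest correlation over types. *Cfd*, *C4b*, *Serpina3n* and the other genes that name a cluster were chosen after their values were seen. Alternatives were other filters on genes per cell and mitochondrial share, no doublet removal, resolution 0.8, chemokine genes kept in the clustering, cells placed by their own marker counts, means over cells, ratios relative to the median of all genes, and other floors and thinning depths. No paired analysis was possible because each genotype had 1 library.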

Additional observations from a re-analysis of the deposited data

How the results depend on the processing

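Each genotype had 1 library, so the values carry counting error but no spread between animals, and low counts limited *Cx3cl1* and *Ccl19*. Numbers of members at least 2-fold apart between the libraries held within 1.5 times in SSPC-1/tendon-like, tendon-like, SSPC-2-like, endothelial-like and lining-like cells under the alternatives run. For lining-like cells the ratios could be read under 7 alternatives only, against 10 for the other types. They moved elsewhere, and the cause was not tested. Main values are in brackets.

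With 500 to 6000 genes per cell, 3 members were lower in *Pi16* fibroblast-like cells of the Piezo1 fl/fl library (5), 1 higher (3) and 1 lower (0) in *Gdf10* fibroblast-like, 2 higher (1) and 1 lower (0) in all fibroblast-like, and 0 lower (1) in macrophage-like cells. Under 10% mitochondrial UMIs, 1 was lower in *Gdf10* (0) and in all fibroblast-like (0) and 0 in macrophage-like cells (1). Without doublet removal, 1 was lower in *Gdf10* fibroblast-like (0) and 1 higher in mural-like cells (2). At resolution 0.8, 1 was lower in *Gdf10* fibroblast-like cells (0), 1 was higher in *Pi16* than in *Gdf10* fibroblast-like cells of the control (3), and *Cxcl1* reversed there to -0.13 (1.03). With chemokine and receptor genes kept in the clustering, 1 was lower in *Gdf10* (0) and in all fibroblast-like cells (0). As means over cells of each cell's CPM, 3 were lower in *Pi16* than in *Gdf10* fibroblast-like cells of the Piezo1 fl/fl library (6). Between the libraries, 3 were then lower in *Pi16* fibroblast-like (5), 1 higher in mural-like (2), 0 lower in macrophage-like (1), and 2 higher in macrophage- and blood-like cells (1). Relative to the median of all genes, 2 were higher in macrophage- and blood-like cells (1).

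Cells placed by their own marker counts moved most. In the Piezo1 fl/fl library 3 members were highest in a fibroblast-like type (6), and 7 had the same highest type in both libraries (4). In the control 3 were lower in SSPC-1/tendon-like than in SSPC-2-like cells (1). Of the Piezo1 fl/fl members, 2 were higher (0) and 2 lower (6) in *Pi16* than in *Gdf10* fibroblast-like cells, and *Cxcl1* reversed to 0.25 and *Ccl8* to 1.00. Between the libraries, 0 were lower in *Pi16* fibroblast-like cells (5), where *Cxcl14* reversed to 0.27 and *Ccl8* to 0.35. In *Gdf10* fibroblast-like cells 1 was higher (3) and 1 lower (0), in mural-like 1 higher (2), and in macrophage- and blood-like cells 2 higher (1) and 1 lower (0).

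Of the other values, 59 levels, 191 ratios and 23 shares moved beyond their counting interval, while 103, 629 and 13 stayed within it. Leaving out barcodes seen in both libraries and a total without mitochondrial and ribosomal protein genes moved no number of members by more than 1.5 times.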

Other observations

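Beyond the 9 members, 18 of 29 other chemokine ligands had at least 10 UMIs in some control type, against 20 for Piezo1 fl/fl. *Cxcl2*, read by the same receptor as *Cxcl1*, was highest in macrophage-like cells of the control at 2495 CPM (2424 to 2567) and in neutrophil-like cells of the Piezo1 fl/fl library at 4690 CPM (4494 to 4892). *Ccl6*, *Ccl9* and *Pf4* were highest in macrophage-like cells of both, at 1483, 1676 and 1538 CPM in the control and 3269, 2989 and 2779 CPM in the Piezo1 fl/fl library. *Ccl12* and *Ccl24* were highest in the same cells, at 117.5 and 128 CPM in the control and 168 and 154 CPM in the Piezo1 fl/fl library. *Ccl3*, *Ccl4*, *Cxcl10* and *Cxcl16* were highest in macrophage-like cells of the control, at 1288, 1342, 196 and 263 CPM, and in blood-like cells of the Piezo1 fl/fl library, at 1433, 2597, 619.6 and 325 CPM. *Cxcl13* was the ligand among these with a stromal peak, at 90.4 CPM (82.1 to 99.4) in *Pi16* fibroblast-like cells of the control and 120.1 CPM (106 to 136) in the *Cfd*-led cluster of the Piezo1 fl/fl library.

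Among the receptors, *Ccr1* was highest in macrophage-like cells of the control at 138 CPM and in neutrophil-like cells of the Piezo1 fl/fl library at 535 CPM. *Ccrl2* peaked in macrophage-like cells of the control at 320.3 CPM and in blood-like cells of the Piezo1 fl/fl library at 718 CPM. *Ackr2* peaked in lining-like cells of the control at 172 CPM and in *Pi16* fibroblast-like cells of the Piezo1 fl/fl library at 135 CPM. *Ackr4* was highest in mature osteoblast-like cells of the control, at 268 CPM, and in SSPC-2-like cells of the Piezo1 fl/fl library, at 195 CPM.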
